A study of Danio rerio with 24 samples.

Results

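The regenerating caudal fin of zebrafish larvae 3 days post amputation (dpa) was compared with unamputated larval caudal fin. The samples were chosen by their labels, as the 3 arrays titled as vehicle controls at 3 dpa and the 3 arrays titled as unamputated fin, which makes 6 of the 24 arrays of the series. Each array was one pool of 150 fins from larvae of the AB strain, hybridised to an Affymetrix zebrafish expression array. The 3 dpa larvae had lost the caudal fin at 2 days post fertilization (dpf), had been kept for 1 hr in water with DMSO, the vehicle of a chemical exposure experiment, and had regrown the fin for 3 days. The unamputated fins were collected at 2 dpf, and no vehicle was stated for them. The 2 dpa larvae used below had also received DMSO, while none was stated for the 1 dpa larvae. Adult male fish supplied 3 arrays of regenerating fin at 3 dpa, after injection of vehicle liposomes, and 3 arrays of unamputated fin, each from a pool of 10 fins. Larval RNA entered a two-cycle labelling kit at 100 ng. Nothing in the labels says that the replicates were separate clutches, so p-values measure the spread between these samples, which may be technical, and the number of arrays limits the precision. No unamputated larvae of the age of the 3 dpa larvae were analysed here, so amputation, 3 days of growth and the vehicle cannot be told apart. The titles of the larval 2 and 3 dpa and adult 3 dpa arrays carry the words adult and larval fin study. Those of the larval 1 dpa and all unamputated arrays lack them. Any difference in handling between these sets of arrays cannot be told apart from the day either.

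The larval fin at 2 dpf is a fold of epidermis around mesenchymal cells and the collagen-like rods called actinotrichia, and it regrows after amputation through a wound epidermis and a blastema, the pool of dividing cells that rebuilds the tissue. At its base it borders the notochord, the trunk muscle, the spinal cord and the caudal vessels. Retinoic acid made by aldh1a2 is known to be needed for fin regrowth. In bulk tissue, fewer cells of a type and less RNA per cell cannot be told apart.

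The deposited value of a probe set is a ratio to a reference of its own, so it shows differences between arrays and not the level of one gene against another. For the same reason the presence of fin markers such as the actinodin and keratin genes could be compared between arrays but not read as a level. In each comparison 15502 probe sets were tested with limma, and calls required an adjusted p below 0.05 together with a 2-fold or larger difference, a log2 change of 1. The verbs rose and fell are used only for called genes, and errors are standard errors of the fitted log2 change. Across probe sets, 3 dpa replicates 1 and 2 correlated with r = 0.808, while replicate 3 correlated with them at 0.638 and 0.629. The 3 unamputated arrays correlated with one another at 0.904 to 0.929. Replicate 3 was also closer to the unamputated arrays (r from 0.281 to 0.350) than replicates 1 and 2 were (0.154 to 0.208). In a fit with array weights it received 0.261, the lowest of the 12 larval arrays. It also differed from replicates 1 and 2 on 2 cytochrome P450 genes that dioxin-like chemicals are known to induce (values further on). Whether its label as a vehicle sample is right was not tested. For many lists and genes the results are therefore also given without this array. Spiked hybridisation controls averaged −0.16 to 0.15 in log2 at 3 dpa and 0.16 to 0.43 in unamputated fin, and the 3′ minus 5′ difference of the GAPDH control probe sets was −0.15 to 0.05 at 3 dpa and −0.04 to 0.22 in unamputated fin.

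At 3 dpa 1641 probe sets were called, 10.6% of those tested, with 787 higher (5.08%) and 854 lower (5.51%). The median change over all probe sets was 0.00. Reduced to 8793 genes with 1 probe set each, 484 genes rose (5.5%) and 515 fell (5.86%). Without replicate 3 of 3 dpa, 1809 probe sets were called, of which 1486 were called in the same direction with all arrays, and 155 of the original calls were lost. The falls were the larger changes: of 102 genes that changed at least 8-fold, 78 fell and 24 rose, and of 28 that changed at least 32-fold, 27 fell and 1 rose.

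**Figure D1:**
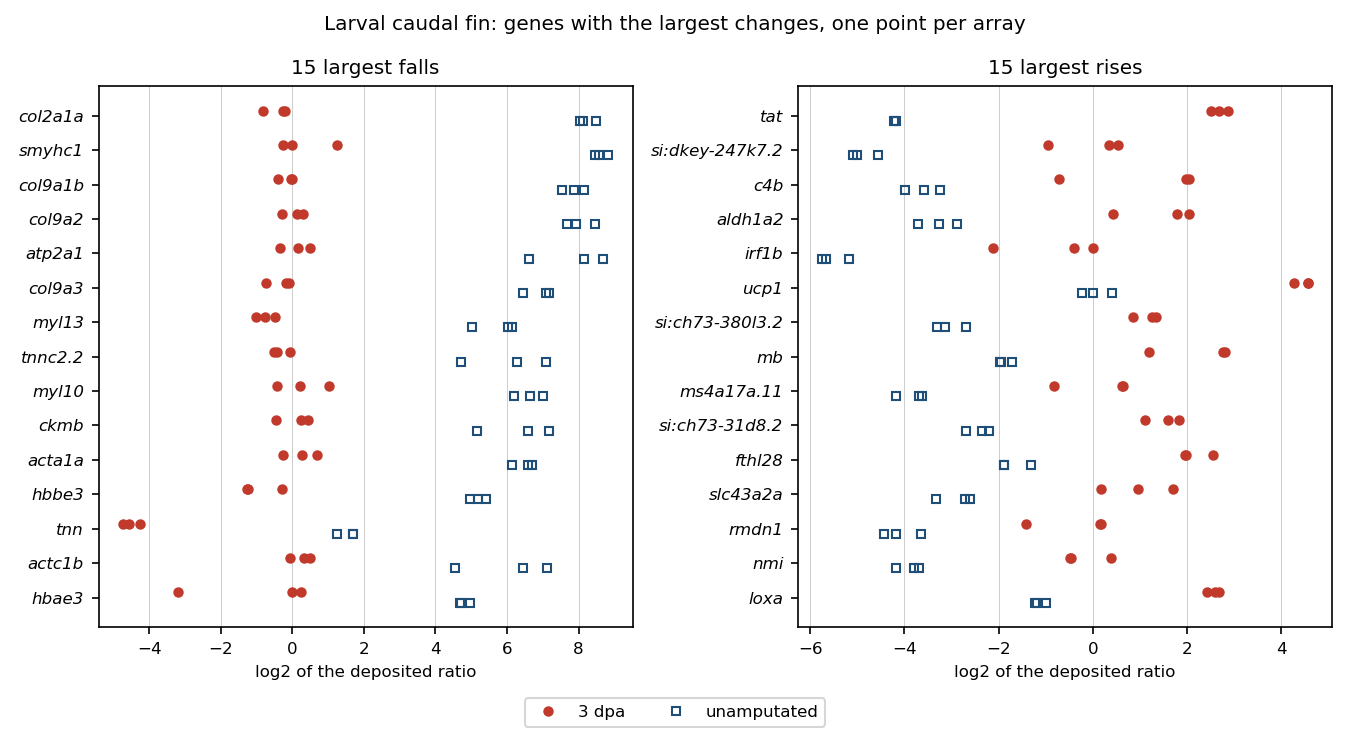
The 15 largest falls (left panel) and the 15 largest rises (right panel) among named genes whose arrays did not overlap, as held for 41.1% of all genes. Each point is 1 array, filled circles for 3 dpa and open squares for unamputated fin, on a log2 scale of the deposited ratio. The falls were led by cartilage collagens and muscle genes, and the rises by tat.

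Cartilage collagens were among the largest falls. The type II collagen gene col2a1a, the main fibre of cartilage and of the notochord sheath, fell the most and had ratios of 0.570, 0.829 and 0.863 at 3 dpa, against 262.9, 361.2 and 278.1 in unamputated fin (log2 change −8.65 ± 0.43, adjusted p = 5.2e-07). All 3 dpa arrays were low and all unamputated arrays were high. The type IX collagen genes col9a1b (−7.99 ± 0.36), col9a2 (−7.97 ± 0.46) and col9a3 (−7.23 ± 0.32), whose products coat type II fibres, fell as well. The sonic hedgehog gene shha, a signal of the notochord and floor plate, had 0.393, 0.912 and 0.923 at 3 dpa and 14.9, 18.5 and 15.7 in unamputated fin (−4.56 ± 0.36). Of 27 notochord and cartilage genes, 11 fell (40.7%, against 5.86% of all genes) and 0 rose. The median change was −0.30, against 0.01 over all genes.

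Skeletal muscle genes fell as a group. The slow myosin heavy chain gene smyhc1 had 2.38, 0.839 and 0.998 at 3 dpa, against 376.5, 454.8 and 349.6 in unamputated fin (−8.28 ± 0.61, adjusted p = 5.4e-06). The calcium pump gene atp2a1 had 1.41, 0.786 and 1.11 at 3 dpa, against 284.1, 409.2 and 97.2 in unamputated fin, where the third array was the lowest. The same unamputated array was the lowest for myosin light chain myl13 (−6.48 ± 0.33), troponin tnnc2.2 (−6.36 ± 0.62), creatine kinase ckmb (−6.24 ± 0.53) and actin actc1b (−5.79 ± 0.66), which all fell. The list held 69 measured muscle genes: 45 fell (65.2%, against 5.86% of all genes), 23 stayed uncalled, and the median change was −2.82. For actc1b 1 other probe set fell by 5.68, while 2 others had −0.02 each and were not called, and close relatives among the actin and globin genes may share signal. Myoglobin, mb, an oxygen-binding protein of muscle, was the only member that rose, with 6.96, 6.75 and 2.3 at 3 dpa and 0.259, 0.256 and 0.305 in unamputated fin (4.13 ± 0.57). Of 48 glycolysis and hypoxia genes 7 fell (14.6%), 3 rose (6.25%, near the 5.5% of all genes) and the median change was 0.08. The falls included the glycolytic enzyme genes gapdh (−5.11 ± 0.42), aldoab (−3.64 ± 0.47), pgam2 (−2.07 ± 0.45) and ldha (−1.62 ± 0.30), and the rises pdk2b (1.95 ± 0.51), a kinase that restrains pyruvate oxidation, whose call was lost without unamputated replicate 1 (1.7). Without 3 dpa replicate 3 the list had 5 rises. The array's control probe sets labelled GAPDH did not show the fall of gapdh. In log2 the 3′ control had −0.642 to −0.162 at 3 dpa and −0.368 to 0.0 in unamputated fin. The 5′ control had −0.496 to −0.185 at 3 dpa and −0.508 to 0.0 in unamputated fin.

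Genes of blood, vessels and nerve tissue also fell. The embryonic globin hbbe3 had 0.820, 0.417 and 0.424 at 3 dpa, against 36.5, 42.4 and 31.4 in unamputated fin (−6.12 ± 0.65), and the anion exchanger slc4a1a of red cells fell by 4.83 ± 0.47. Of 25 erythrocyte genes 10 fell (40%, against 5.86% of all genes) and 0 rose. In the endothelium list 5 of 26 genes fell (19.2%) and 0 rose. The falls included the Vegf receptor kdrl, with 0.0855, 0.0638 and 0.0745 at 3 dpa and 1.00, 0.900 and 0.707 in unamputated fin (−3.54 ± 0.28). The vessel fenestra gene plvapb fell by 3.33 ± 0.24 and the aquaporin aqp8a.1 by 3.64 ± 0.49. Among 50 genes of neurons and glia 13 fell (26%) and 1, runx3, rose (1.52 ± 0.39), a call lost without unamputated replicate 2 (1.39). The second probe set of runx3 had 0.43 and was not called. The neural progenitor gene sox19a fell by 2.65 ± 0.25 and the neuronal RNA-binding gene elavl3 by 2.33 ± 0.44, although the other 3 probe sets of elavl3 were not called. The chemokine gene cxcl12b had 0.269, 0.252 and 0.225 at 3 dpa, against 11.4, 11.2 and 10.5 in unamputated fin (−5.48 ± 0.37), and its paralogue cxcl12a fell by 2.82 ± 0.40. These were the 2 falls among 10 genes of chemokines and receptors (20%, against 5.86% of all genes). In that list ccl34b.1 rose by 1.99 ± 0.40 (10%, against 5.5% of all genes), and the median change was 0.34.

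At 1 dpa few genes of these tissues were lower than in unamputated fin. The erythrocyte list and the notochord and cartilage list had 1 fall each, and hbbe3 had fallen by 5.07 (adjusted p = 0.00077). On that day the muscle list had a median change of 0.36 with 2 rises and 0 falls, and smyhc1 had 480.0, 864.7 and 479.3. At 2 dpa the median was −2.61, with 1 rise and 47 falls, against 6.99% and 6.47% of all genes. Notochord and cartilage genes had medians of −0.01 at 1 dpa and −0.49 at 2 dpa. Over all genes the median change was −0.014 at 1 dpa and 0.005 at 2 dpa, and the share of all genes called at 1 dpa is not given here. All of these comparisons share the unamputated arrays. The unamputated and 1 dpa titles lack the study words that the 2 and 3 dpa titles carry. The step from 1 to 2 dpa therefore cannot be told apart from a difference between these sets of arrays. The mean log2 ratio over the muscle list was −0.16 to −0.09 at 3 dpa and 1.93 to 3.13 in unamputated fin, and over the notochord and cartilage list it was −0.38 to −0.20 at 3 dpa and 1.53 to 1.66 in unamputated fin. For erythrocyte genes it was −0.45 to −0.18 at 3 dpa and 0.95 to 1.00 in unamputated fin. Ratios do not show which of these markers were undetected, so no marker could be placed at 0. How much of the muscle and cartilage falls came from the share of trunk tissue in the collected fins was not tested.

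**Figure D2:**
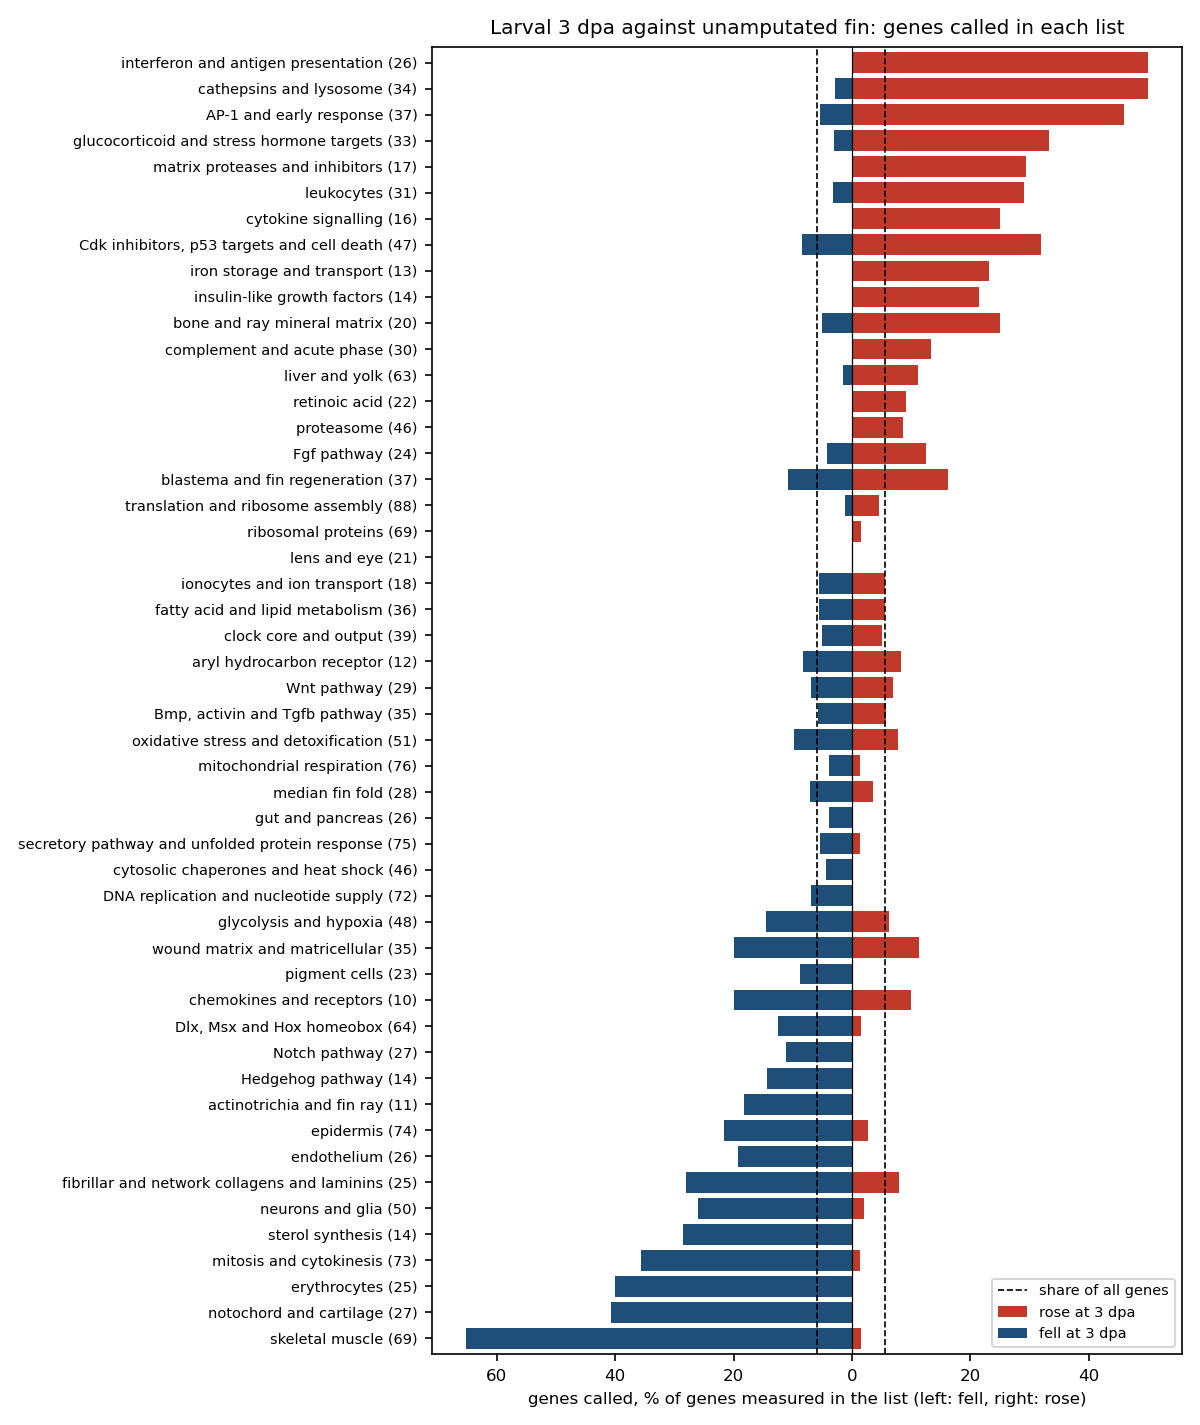
Share of the measured genes of each of 50 lists that rose (right of 0) or fell (left of 0) at 3 dpa, with the number of genes measured in brackets. Dashed lines mark the share of all genes, 5.5% higher and 5.86% lower. Interferon, lysosome and early response genes had the largest shares of rises, and muscle, cartilage and erythrocyte genes the largest shares of falls.

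Homeobox genes that pattern the body axis were among the falls. Of 64 Hox, Dlx, Msx and related homeobox genes 8 fell (12.5%, against 5.86% of all genes) and 1 rose. The largest falls were those of hoxb8a, with 1.07, 1.02 and 1.06 at 3 dpa against 5.11, 9.64 and 8.91 in unamputated fin (−2.86 ± 0.24), hoxb3a (−2.65 ± 0.19), the caudal gene cdx4 (−1.99 ± 0.29) and hoxa2b (−1.80 ± 0.20). The other 2 probe sets of hoxb8a were not called. The rise was that of msx3, a muscle segment homeobox gene of the regenerating fin, with 1.52, 1.80 and 3.15 at 3 dpa and 0.592, 0.639 and 0.901 in unamputated fin (1.55 ± 0.31). It was seen with the probe set used and not with the other 2 of that gene. Without replicate 3 the list had 3 rises and 6 falls. The blastema marker msx1b had a log2 difference of 0.30 ± 0.19 and was not called.

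Signalling pathways had few called members each. Hedgehog genes had 2 falls among 14, shha and its inhibitor hhip, which had 0.322, 0.366 and 0.417 at 3 dpa and 5.34, 5.15 and 5.83 in unamputated fin (−3.89 ± 0.27). In the Notch list 3 of 27 genes fell, the ligands dlb (−3.43 ± 0.39) and dla (−2.81 ± 0.23) and the target gene hey1 (−2.35 ± 0.17), and a second probe set of dlb had −0.01 and was not called. The Notch count was 5 falls without 3 dpa replicate 1. Among 29 Wnt genes 2 rose, dkk3b, with 1.33, 1.88 and 1.06 at 3 dpa against 0.110, 0.117 and 0.137 in unamputated fin (3.52 ± 0.24), and the ligand wnt11 (1.39 ± 0.17). The Wnt inhibitor wif1 fell by 2.1 ± 0.10 and wnt4b by 1.19 ± 0.17. Of 24 Fgf genes 3 rose, the phosphatase dusp1, the ligand fgf10a (1.27 ± 0.13) and the feedback inhibitor spry4 (1.2 ± 0.32), and the receptor fgfr4 fell by 1.68 ± 0.16. Without replicate 3, 6 Fgf genes rose. In the Bmp, activin and Tgfb list 2 of 35 rose, bmp5 (1.21 ± 0.15) and bambia (1.03 ± 0.16), and 2 fell, id4 (−1.55 ± 0.20) and id3 (−1.06 ± 0.23). For the Wnt and Bmp lists these shares lay near the 5.5% and 5.86% of all genes. The shares of falls in the Hedgehog and Notch lists lay above the 5.86% of all genes, and the Fgf share of rises lay above the 5.5%. Each of these shares rested on 2 or 3 genes, and whether they exceeded those of all genes by more than chance was not tested. The call of spry4 was lost without either 3 dpa replicate 1 (1.08) or 2 (0.98) and without unamputated replicate 2 (1.14) or 3 (1.03), that of bambia without 3 dpa replicate 2 (0.85), and that of id3 without 3 dpa replicate 3 (−0.79) or unamputated replicate 2 (−0.95).

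In the retinoic acid list 2 of 22 genes rose, where 5.5% of all genes did. The retinaldehyde dehydrogenase gene aldh1a2, which makes retinoic acid, had 3.46, 4.13 and 1.34 at 3 dpa, against 0.104, 0.136 and 0.0768 in unamputated fin (4.70 ± 0.37, adjusted p = 7.7e-06), and replicate 3 was the lowest 3 dpa array. Without that array the change was 5.2. The retinol carrier gene rbp4 rose by 1.25 ± 0.26, and the other 20 genes were not called. The retinoic acid-degrading gene cyp26a1 had a log2 difference of −0.50 ± 0.53 and was not called. Insulin-like growth factor 2b, igf2b, had 0.644, 1.42 and 1.66 at 3 dpa, against 0.149, 0.258 and 0.221 in unamputated fin (2.49 ± 0.34). The binding proteins igfbp1a and igfbp3 rose by 1.61 ± 0.44 and 1.15 ± 0.32, so that 3 of 14 genes of the insulin-like growth factor list rose. For igfbp1a the groups overlapped, since replicate 3 at 0.274 lay just under the highest unamputated array at 0.278. That count was 1 without 3 dpa replicate 1, without 3 dpa replicate 2 and without unamputated replicate 3. Of 37 blastema and fin regeneration genes 6 rose (16.2%) and 4 fell (10.8%, against 5.86% of all genes). Without replicate 3 these counts were 10 and 3.

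Among genes, with 1 probe set each, the largest rise was that of tat, tyrosine aminotransferase, which breaks down tyrosine in the liver and is a classical glucocorticoid target. It had 7.26, 5.69 and 6.41 at 3 dpa, against 0.0556, 0.0541 and 0.0536 in unamputated fin (6.88 ± 0.92, adjusted p = 0.00025), and the arrays of each group lay close together. Of 33 glucocorticoid and stress hormone targets 11 rose (33.3%) and 1 fell (3.03%), where 5.5% of all genes rose and 5.86% fell. The median change was 0.54. The cytokine inhibitor socs3a had 0.922, 0.864 and 0.494 at 3 dpa and 0.131, 0.0673 and 0.0628 in unamputated fin (3.16 ± 0.29). The transcription factor genes klf9 (2.60 ± 0.41) and cebpd (2.50 ± 0.37) and the phosphatase dusp1 (2.48 ± 0.30) rose as well, and cyp17a1, a steroid hydroxylase gene, fell by 1.62 ± 0.24. Other lists count some of these rises again: klf9, cebpd and dusp1 are also in the early response list, dusp1 in the Fgf list and socs3a in the cytokine signalling list. A second probe set of cebpd had 0.36 and was not called. In the liver and yolk list, which holds tat, 7 of 63 genes rose, 1 fell and the median was 0.07. The rises included rbp4, apoeb (1.66 ± 0.20), a lipoprotein gene also made by macrophages, and hgd (1.43 ± 0.25), which acts after tat in tyrosine breakdown.

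Immediate early and stress genes were higher at 3 dpa. Of 37 AP-1 and early response genes 17 rose (45.9%, against 5.5% of all genes), 2 fell (5.41%, against 5.86%) and the median was 0.94. The AP-1 subunit gene junba had 1.05, 0.750 and 0.400 at 3 dpa, against 0.152, 0.0519 and 0.0799 in unamputated fin (2.99 ± 0.39), and the groups did not overlap. The flow-responsive factor klf2a had 0.514, 1.00 and 0.594 at 3 dpa and 0.0808, 0.0871 and 0.0915 in unamputated fin (2.96 ± 0.29). The junba paralogue junbb rose by 1.84 ± 0.36 and fosab by 1.92 ± 0.43, with replicate 3 the lowest 3 dpa array for both. In the cytokine signalling list 4 of 16 genes rose (25%) and 0 fell. The rises were those of socs3a, socs3b (2.04 ± 0.28), and the NF-κB genes nfkbiaa (1.92 ± 0.32) and nfkb2 (1.19 ± 0.23). The call of nfkb2 was lost without 3 dpa replicate 2 (0.94).

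Interferon and antigen presentation genes had as large a share of rises as any list. Of 26 genes 13 rose (50%, against 5.5% of all genes) and 0 fell, with a median of 0.97. The counts were the same without replicate 3. With the 0.25 of probe sets of lowest larval mean left out before testing, 0 interferon genes rose, and the rises were 3 in the early response list above and 5 among glucocorticoid and stress hormone targets. A low larval mean is a low ratio and does not show a low signal. The filter can remove genes because they were low in unamputated fin, so calls lost under it cannot decide whether rises hold. The interferon regulatory factor irf1b, a transcription factor of interferon-responsive genes, had 0.232, 0.756 and 1.00 at 3 dpa, against 0.0196, 0.0278 and 0.0187 in unamputated fin (4.69 ± 0.49, adjusted p = 5.3e-05). Replicate 1 was the lowest of the 3 dpa arrays and still lay above every unamputated array. Genes of the immunoproteasome, which cuts proteins for display on MHC class I, rose together. The catalytic subunit psmb10 had 0.705, 1.00 and 0.850 at 3 dpa and 0.104, 0.118 and 0.147 in unamputated fin (2.79 ± 0.20), and the activator subunits psme1 and psme2 rose by 2.68 ± 0.17 and 2.1 ± 0.19. With psmb8a (1.12 ± 0.23) these were all 4 rises among 46 proteasome genes, whose median was 0.11, and the call of psmb8a was lost without 3 dpa replicate 2 (0.91). The GTPase gbp1, induced by interferon, rose by 2.56 ± 0.15, and the Myc and STAT interactor nmi, also an interferon-induced gene, had 0.712, 1.31 and 0.722 at 3 dpa and 0.0718, 0.0553 and 0.0774 in unamputated fin (3.70 ± 0.24).

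Lysosome and phagocyte genes rose while lysozyme fell. Of 34 cathepsin and lysosome genes 17 rose (50%) and 1 fell. The cathepsin genes ctsl.1, ctss2.1 and ctsk, lysosomal proteases, rose by 2.60 ± 0.48, 2.18 ± 0.51 and 1.86 ± 0.28, the granulin gene grna rose by 2.28 ± 0.36, and the membrane protein gene scarb2a fell by 1.92 ± 0.36. The other probe set of ctsl.1 rose by 6.74 ± 0.48 (adjusted p = 4.5e-06). Among 31 leukocyte genes 9 rose and 1 fell, with a mean log2 ratio over the list of −0.58 to −0.02 at 3 dpa and −0.94 to −0.72 in unamputated fin. The macrophage gene cd68 had 0.944, 0.909 and 0.664 at 3 dpa, against 0.116, 0.0921 and 0.105 in unamputated fin (3.00 ± 0.36), and the scavenger receptor marco rose by 1.87 ± 0.33. Lysozyme, lyz, a bacteria-killing enzyme of neutrophils and macrophages, had 2.53, 0.463 and 0.505 at 3 dpa and 37.5, 13.7 and 7.66 in unamputated fin (−4.23 ± 0.70). The leukocyte count was 5 rises without 3 dpa replicate 1. With the probe sets of lowest larval mean left out, 7 lysosome genes and 3 leukocyte genes rose. Complement and acute phase genes had 4 rises among 30 (13.3%, against 5.5% of all genes), and the median was 0.09. That count was 2 without unamputated replicate 1 or 3. The complement gene c4b had 4.15, 3.96 and 0.606 at 3 dpa, against 0.0633, 0.106 and 0.0836 in unamputated fin (4.71 ± 0.82), and c6.2 rose by 2.47 ± 0.37. Without 3 dpa replicate 3 the change of c4b was 5.62.

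Several of the largest rises belonged to genes outside the lists described above. The mitochondrial carrier ucp1 had 23.7, 19.3 and 23.7 at 3 dpa, against 1.32, 1.00 and 0.856 in unamputated fin (4.41 ± 0.53). The ferritin gene fthl28, of the iron storage family, rose by 3.86 ± 0.59 and the iron exporter slc40a1 by 1.18 ± 0.16. Of 13 iron storage and transport genes 3 rose (23.1%, against 5.5% of all genes) and 0 fell, and without 3 dpa replicate 3 the rises were 2. The amino acid transporter slc43a2a rose by 3.83 ± 0.34 and rmdn1 by 3.72 ± 0.71. The 15 largest rises also held genes known by clone or family names: si:dkey-247k7.2 (4.86 ± 0.41), si:ch73-380l3.2 (4.19 ± 0.40), ms4a17a.11 (3.97 ± 0.33) and si:ch73-31d8.2 (3.93 ± 0.33). The selenium carrier selenop had 4.118, 4.09 and 2.72 at 3 dpa and 0.330, 0.398 and 0.325 in unamputated fin (3.36 ± 0.33). It led the oxidative stress list, in which 4 of 51 genes rose (7.84%) and 5 fell (9.8%), where 5.5% and 5.86% of all genes did. Without unamputated replicate 1 the rises were 2, and without 3 dpa replicate 2 the falls were 3.

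Matrix genes moved in both directions. The lysyl oxidase gene loxa, which crosslinks collagen, had 5.34, 6.43 and 6.02 at 3 dpa, against 0.428, 0.437 and 0.504 in unamputated fin (3.70 ± 0.52), and its relative loxl2b rose by 1.77 ± 0.31 and thrombospondin thbs3a by 2.02 ± 0.18. Tenascin N, tnn, an adhesion-modulating matrix protein, had 0.0423, 0.0376 and 0.0523 at 3 dpa and 3.22, 3.25 and 2.37 in unamputated fin (−6.06 ± 0.28), while a second probe set of tnn had −0.52 and was not called. The wound matrix list had 4 rises (11.4%) and 7 falls (20%) among 35 genes, where 5.5% of all genes rose and 5.86% fell. Among the falls was that of thbs1b (−1.87 ± 0.25). With the probe sets of lowest larval mean left out, that list had 1 rise and 3 falls. The type I collagen gene col1a2 had 0.342, 0.396 and 0.307 at 3 dpa and 1.27, 1.29 and 1.25 in unamputated fin (−1.88 ± 0.11). Of 25 fibrillar and network collagens and laminins 7 fell (28%) and 2 rose (8%). The actinodin genes and1 and and2, which build the actinotrichia, had log2 differences of 0.20 ± 0.10 and 0.22 ± 0.12 and were not called. The actinotrichia and fin ray list, which also holds col2a1a, had 2 falls (18.2%, against 5.86% of all genes) and 0 rises among 11 genes. Its median change was −0.01.

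Matrix proteases and their inhibitors had 5 rises (29.4%, against 5.5% of all genes) and 0 falls among 17 genes. The membrane-bound proteases mmp14b and mmp14a rose by 1.87 ± 0.15 and 1.51 ± 0.20, the protease inhibitors serpine2 and timp2a by 1.38 ± 0.17 and 1.25 ± 0.12, and mmp2 by 1.22 ± 0.24, a call lost without 3 dpa replicate 2 (0.98). The wound protease mmp9 had 4.07, 3.59 and 1.75 at 3 dpa, against 1.74, 0.621 and 1.13 in unamputated fin. Its change of 1.46 ± 0.50 was not called with all arrays and was called without replicate 3 (1.84, adjusted p = 0.022) or without unamputated replicate 1 (1.81). Of 20 bone and ray genes 5 rose (25%) and 1 fell (5%, near the 5.86% of all genes). The pyrophosphate transporter gene ankha (2.44 ± 0.20) and the pyrophosphate-forming enzyme gene enpp1 (1.61 ± 0.20) rose, with ctsk and the phosphatase acp5a (1.44 ± 0.42), both known from bone-resorbing cells, and runx3, and the mineral-binding gene spp1 fell by 1.42 ± 0.13. Without unamputated replicate 2 the rises were 3. The call of acp5a was lost without 3 dpa replicate 1 (1.5) or 2 (1.22) and without unamputated replicate 2 (1.45) or 3 (1.15).

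Epidermal genes fell more often than they rose, with 16 falls (21.6%, against 5.86% of all genes) and 2 rises among 74. With the probe sets of lowest larval mean left out there were 9 falls. The mucus-cell gene agr2 had 0.448, 0.0622 and 0.127 at 3 dpa, against 1.43, 1.67 and 1.49 in unamputated fin (−3.32 ± 0.65). The cornified envelope gene evplb fell by 2.68 ± 0.24, annexin anxa1c by 2.51 ± 0.22, and the keratins krt94 and krt1-19e by 2.44 ± 0.24 and 2.11 ± 0.46. For krt1-19e replicate 3 was the highest 3 dpa array, at 0.838 against 0.193 and 0.225 in replicates 1 and 2. The mean log2 ratio over the epidermis list was −0.63 to −0.30 at 3 dpa and −0.01 to 0.03 in unamputated fin. Among 23 pigment cell genes 2 fell (8.7%, near the 5.86% of all genes), the pteridine synthesis gene gch2 (−3.10 ± 0.33) and the purine synthesis gene impdh1b (−1.01 ± 0.25), each with a second probe set that was not called, and impdh1b lost its call without 3 dpa replicate 2 (−0.9) or unamputated replicate 3 (−0.88). In the lens and eye list 0 of 21 genes were called by limma at an adjusted p, and 1 of 26 gut and pancreas genes, agr2, fell.

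Many mitotic genes fell at 3 dpa, while few replication genes were called. Of 73 mitosis and cytokinesis genes 26 fell (35.6%), 1 rose and the median change was −0.70, and 13 fell with the probe sets of lowest larval mean left out. The spindle motor gene kif11 had 0.227, 0.645 and 0.416 at 3 dpa, against 1.76, 1.96 and 1.87 in unamputated fin (−2.24 ± 0.30). The spindle genes tacc3 and prc1a fell by 1.94 ± 0.28 and 1.92 ± 0.41 and the motor gene kif23 by 1.81 ± 0.37, although its other probe set had −0.20 and was not called. In all 4 of these genes replicate 2 was the highest 3 dpa array and still below the unamputated arrays. The rise was that of kif20a (1.64 ± 0.44), whose other probe set had −0.11 and was not called. That call of kif20a was lost without 3 dpa replicate 1 (1.35) or 2 (1.52) and without unamputated replicate 3 (1.56). Of 72 genes of DNA replication and nucleotide supply 5 fell (6.94%, near the 5.86% of all genes) and 0 rose, with a median of −0.22. The falls, of which that of cdca7a was lost without 3 dpa replicate 1 (−0.97) or 3 (−0.94), were those of the replication licensing factor cdt1 (−1.36 ± 0.27), the nucleotide hydrolase dut (−1.32 ± 0.25), e2f8 (−1.17 ± 0.29), cdca7a (−1.06 ± 0.17) and impdh1b. The clamp gene pcna had a log2 difference of −0.11 ± 0.14 and the proliferation marker mki67 one of −0.66 ± 0.26, and neither was called. Another probe set of mki67 had −0.98 ± 0.12 (limma adjusted p = 0.00015), just short of the 2-fold limit, and a further one had 0.16.

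Of 47 Cdk inhibitors, p53 targets and cell death genes 15 rose (31.9%, against 5.5% of all genes) and 4 fell (8.51%, against 5.86%). The other 28 were not called. Without replicate 3, 19 rose, and with the probe sets of lowest larval mean left out 6 did. The Bcl2 family genes bcl2l10 and bik rose by 2.29 ± 0.40 and 2.05 ± 0.31 and the stress sensor gadd45ba by 2.00 ± 0.27. The Cdk inhibitor cdkn1ca fell, with 0.850, 1.00 and 1.22 at 3 dpa against 4.53, 5.60 and 4.09 in unamputated fin (−2.22 ± 0.21).

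Day 3 was then set against day 2, the most similar larval group, with which 3 dpa replicates 1 and 2 correlated at r = 0.758 to 0.849 and replicate 3 at 0.579 to 0.630. Only 46 probe sets were called between the days by limma (0.297%), 31 higher at 3 dpa (0.2%) and 15 lower (0.0968%), while 1748 had an unadjusted p below 0.05. Among genes of DNA replication and nucleotide supply 18 of 72 were higher at 3 dpa and 0 were lower, against 0.296% of all genes higher. The helicase subunit gene mcm5 had 0.727, 1.1 and 1.00 at 3 dpa, against 0.311, 0.284 and 0.262 at 2 dpa (1.70 ± 0.14, adjusted p = 0.00057). The helicase subunit mcm4 (1.54 ± 0.10), the polymerase subunit pola1 (1.48 ± 0.11) and pcna (1.47 ± 0.14) showed the same difference. No mitosis and cytokinesis gene was called between the days by limma (0 of 73), and the list had a median difference of 0.24. Its 3 dpa arrays were spread widely, with mean log2 ratios over the list of −0.905, −0.153 and −0.587 in replicates 1, 2 and 3. The means were −0.905 to −0.827 at 2 dpa and 0.190 to 0.260 in unamputated fin. At 2 dpa, when 6.47% of all genes fell, 35 replication genes and 39 mitosis genes had been below unamputated fin.

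**Figure D3:**
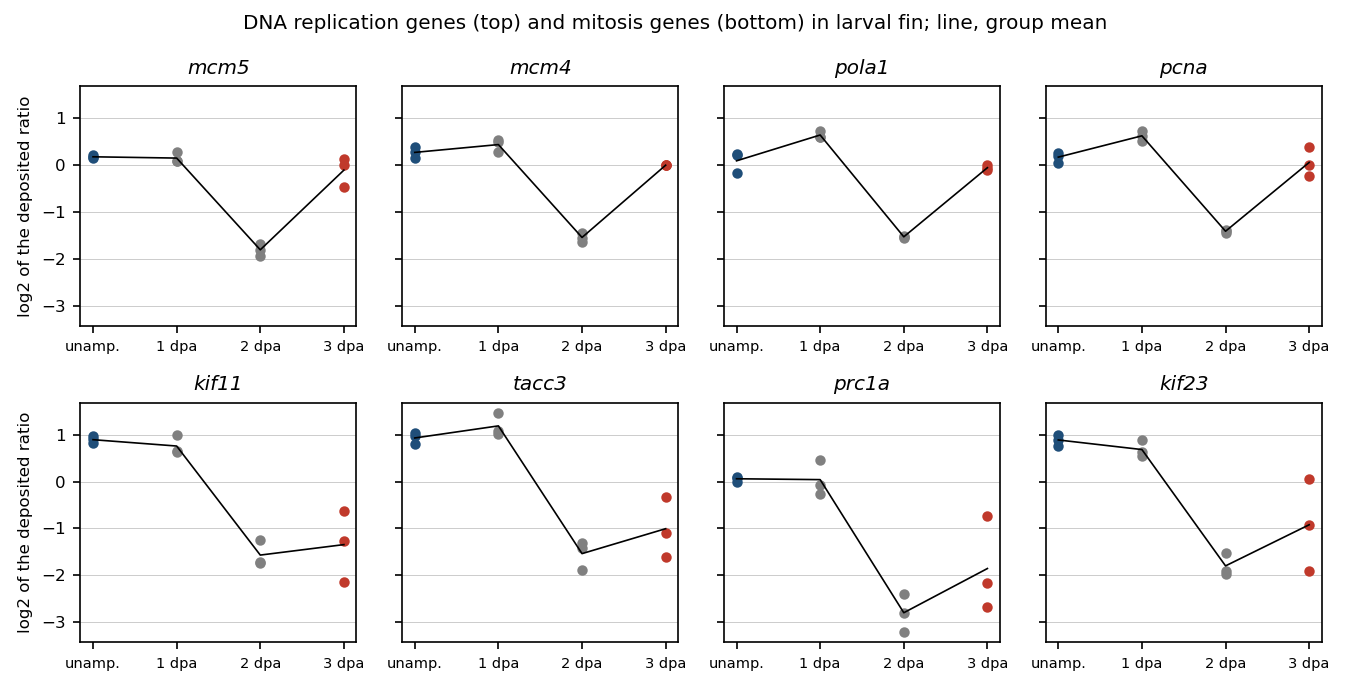
Log2 of the deposited ratio for 4 DNA replication genes (top row) and 4 mitosis genes (bottom row) in larval fin, from unamputated to 3 dpa, 1 point per array with a line through the group means. The replication genes were low at 2 dpa and near the unamputated values at 3 dpa. The mitosis genes stayed below the unamputated values at 3 dpa, with replicate 2 the highest 3 dpa array.

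At 3 dpa irf1b exceeded its 2 dpa values of 0.0471, 0.0823 and 0.0920 by 2.98 ± 0.49 in log2 (adjusted p = 0.024), and igf2b its values of 0.217, 0.385 and 0.341 by 1.91 ± 0.34 (adjusted p = 0.039). Glutamate decarboxylase gad2 was lower at 3 dpa (−1.89 ± 0.26): it had 0.390, 0.296 and 0.290 at 3 dpa and 1.31, 0.827 and 1.59 at 2 dpa. The clone-named genes zgc:112964 and zgc:158846 were lower by 2.70 ± 0.28 and 2.15 ± 0.32, and against unamputated fin they had fallen by 3.63 ± 0.28 and 4.27 ± 0.32. The call count between the days depended on single arrays, with 122 probe sets called without 3 dpa replicate 1, 23 without 2 dpa replicate 1 and 2 in a fit of the 6 arrays alone.

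Ribosomal, respiratory and chaperone genes had few called members. Over all genes 5.5% rose and 5.86% fell. Of 69 ribosomal protein genes 1 rose, rps27l (1.07 ± 0.13, and 0.94 and uncalled without 3 dpa replicate 3), and the median was 0.27. Mitochondrial respiration had a median of −0.03 over 76 genes, with 1 rise, the cytochrome oxidase subunit cox4i2 (2.49 ± 0.21), and 3 falls, ndufa4b (−2.14 ± 0.31), cox6b1 (−1.37 ± 0.21) and cycsb (−1.20 ± 0.18). Among 46 cytosolic chaperones 2 fell, hsp90aa1.1 (−3.04 ± 0.43) and unc45b (−1.16 ± 0.20, and −0.97 and uncalled without unamputated replicate 2), which fold muscle myosin, and 0 rose. In the secretory pathway list 4 of 75 genes fell (5.33%, near the share of all genes) and 1 rose. The median was −0.22, and 10 fell after quantile normalization. The sterol synthesis list had 4 falls (28.6%, against 5.86% of all genes) and 0 rises among 14 genes and a median of −0.87, with 9 falls after quantile normalization, and the largest falls were those of cyp51 (−2.65 ± 0.31) and acat2 (−1.79 ± 0.11). For cyp51, 1 other probe set fell by 2.61 and 2 were not called. In translation and ribosome assembly 4 of 88 genes rose (4.55%, near the share of all genes). The rises included the translation inhibitors eif4ebp3l (1.76 ± 0.28) and eif4ebp1 (1.1 ± 0.11). In that list ubtf fell by 1.08 ± 0.18, a call lost without 3 dpa replicate 2 (−0.95) or unamputated replicate 3 (−0.97). Of 39 clock genes 2 rose, bhlhe41 (1.48 ± 0.21) and cry1b (1.14 ± 0.29, a call lost without 3 dpa replicate 1 or unamputated replicate 2), and 2 light-induced DNA repair genes fell, cry5 (−2.35 ± 0.36) and ddb2 (−1.71 ± 0.40). Both clock shares were 5.13%, near those of all genes.

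The larval change at 3 dpa was then compared with the adult change at 3 dpa, with 24 arrays in the fit. The adult samples, all from males, differed in age, vehicle, pool size, RNA input and labelling kit as well. The difference between the changes was called for 3425 probe sets (22.1%), 1639 with a higher larval change (10.6%) and 1786 with a lower one (11.5%). The median of this difference over all probe sets was 0.18, and with arrays centred on their medians the split was 1270 and 2113. Differences below are much larger than that shift.

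**Figure D4:**
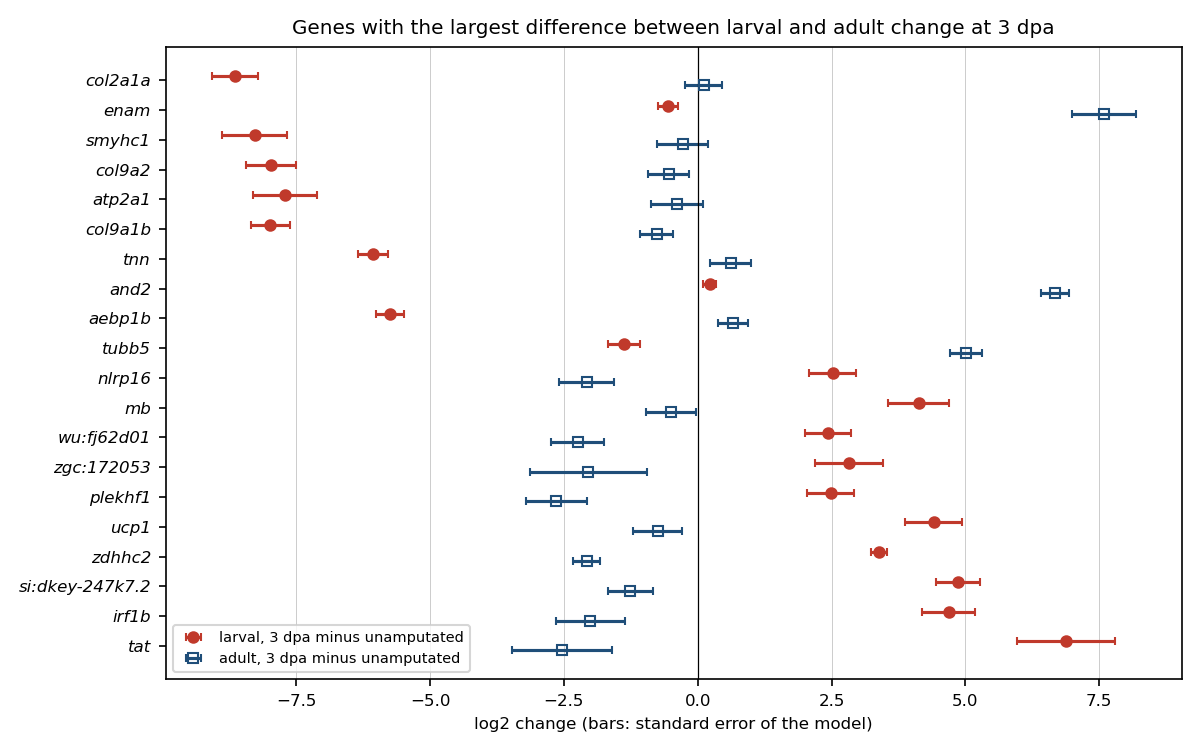
Log2 change at 3 dpa against unamputated fin in larvae (filled circles) and adults (open squares) for the 20 genes with the largest called difference between the ages, 10 in each direction. Bars are standard errors of the model. For tat, irf1b, zdhhc2 and plekhf1, among others, a larval rise stood beside an adult fall.

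Opposite calls led the higher end. For tat the larval rise of 6.88 stood beside an adult fall of 2.54, with adult ratios of 0.651, 0.289 and 0.494 at 3 dpa against 3.25, 2.34 and 2.4 in unamputated adult fin (difference 9.42 ± 1.32, adjusted p = 2.5e-05). For irf1b the larval rise of 4.69 stood beside an adult fall of 2.01 (difference 6.70 ± 0.91). The AP-1 and early response list had 16 of 37 genes with a higher larval change and 0 with a lower one, where 10.8% and 13% of all genes had one, and the interferon and antigen presentation list had 17 and 1 of 26. In adults 2 early response genes rose and 13 fell, and 1 interferon gene rose and 2 fell, where 10.1% of all genes rose and 6.33% fell.

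At the other end stood larval falls of cartilage and muscle genes, led by col2a1a (difference −8.76), and adult rises. For col2a1a unamputated adult fin had 0.604, 0.619 and 0.592, within the larval 3 dpa range of 0.570 to 0.863. The enamel matrix gene enam had −0.56 ± 0.18 in larvae, which was not called, and rose by 7.60 in adults (difference −8.15 ± 0.84), and and2 had 0.22 in larvae, not called, and rose by 6.68 in adults (difference −6.46 ± 0.37). The tubulin gene tubb5 fell by 1.38 in larvae, where its other probe set had −0.04 and was not called, and rose by 5.02 in adults. Among 37 blastema and fin regeneration genes 23 rose in adults and 6 in larvae, and the difference was called lower in larvae for 16 genes. Mitosis and cytokinesis genes had a median of −0.70 in larvae and 1.37 in adults, with 51 of 73 genes called lower in larvae. For 39 of 75 secretory pathway genes the larval change was also lower, with medians of −0.22 in larvae and 0.62 in adults. The retinoic acid gene aldh1a2 rose at both ages, by 4.70 in larvae and 3.84 in adults.

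Replicate 3 of 3 dpa stood apart on named genes as well as in correlation. Over all genes, the SD of its log2 deviation from the mean of the other 2 arrays was 0.477, against 0.361 for replicate 1 and 0.352 for replicate 2. The cortisol-inactivating enzyme gene hsd11b2 had 1.78, 0.915 and 0.140 in 3 dpa replicates 1, 2 and 3, against 0.657, 0.308 and 0.322 in unamputated fin. The actin-binding gene tagln had 1.00, 1.06 and 0.168 at 3 dpa and 0.266, 0.250 and 0.201 in unamputated fin. In both, replicate 3 was the lowest of all 6 arrays. The same held for the RNA-transport gene stau2, with 0.139 in replicate 3. With all arrays none of hsd11b2, tagln, stau2 and zgc:123295 was called, and without replicate 3 they were called higher, with changes of 1.67, 2.12, 1.81 and 2.43.

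The genes on which replicate 3 was highest included 2 cytochromes P450 that the aryl hydrocarbon receptor, the receptor for dioxins, is known to induce. The gene cyp1c1 had 0.299, 0.350 and 5.07 in 3 dpa replicates 1, 2 and 3, against 0.393, 0.403 and 0.593 in unamputated fin. The gene cyp1a had 0.137, 0.0485 and 0.720 at 3 dpa, against 0.653, 1.00 and 1.87 in unamputated fin, and 1.15, 0.766 and 1.39 at 2 dpa. Replicate 3 thus lay above the unamputated arrays for cyp1c1. For cyp1a it lay within their range and below all 2 dpa arrays. The change of cyp1c1 was not called (0.83), nor were those of its other 2 probe sets (0.10 and −0.15). Arrays of chemically exposed larvae were not analysed here. The fall of cyp1a (−2.67 ± 0.86, adjusted p = 0.040) had overlapping groups, and without replicate 3 its change was −3.71. That call was lost without any one of the other 5 arrays, with changes of −1.77 to −3.02. Of 12 genes of the aryl hydrocarbon receptor list 1 rose, nqo1 (1.02 ± 0.16, and 0.9 and uncalled without replicate 3), and 1 fell, cyp1a. Over these 12 genes the mean log2 ratio was −0.415, −0.493 and −0.006 in 3 dpa replicates 1, 2 and 3. It was −0.113 to 0.049 at 2 dpa and −0.401 to −0.165 in unamputated fin. The collagen gene col28a2a had 0.895, 1.00 and 6.05 at 3 dpa and 7.99, 9.85 and 11.3 in unamputated fin, and pygo2, a Wnt co-factor gene, had 0.372, 0.530 and 2.3 at 3 dpa and 1.93, 1.78 and 2.16 in unamputated fin. The change of pygo2 was −1.35 and uncalled with all arrays, and −2.14 and called without replicate 3. Other probe sets of pygo2 had −0.76 and 0.23 and were not called. For complement factor cfd the rise (2.23 ± 0.62) was larger in replicate 3, with 0.190, 0.132 and 1.00 at 3 dpa against 0.0427, 0.0857 and 0.0668 in unamputated fin, and without that array it was 1.34 (adjusted p = 0.020). The call was lost without unamputated replicate 1 (1.95) or 3 (2.28).

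**Figure D5:**
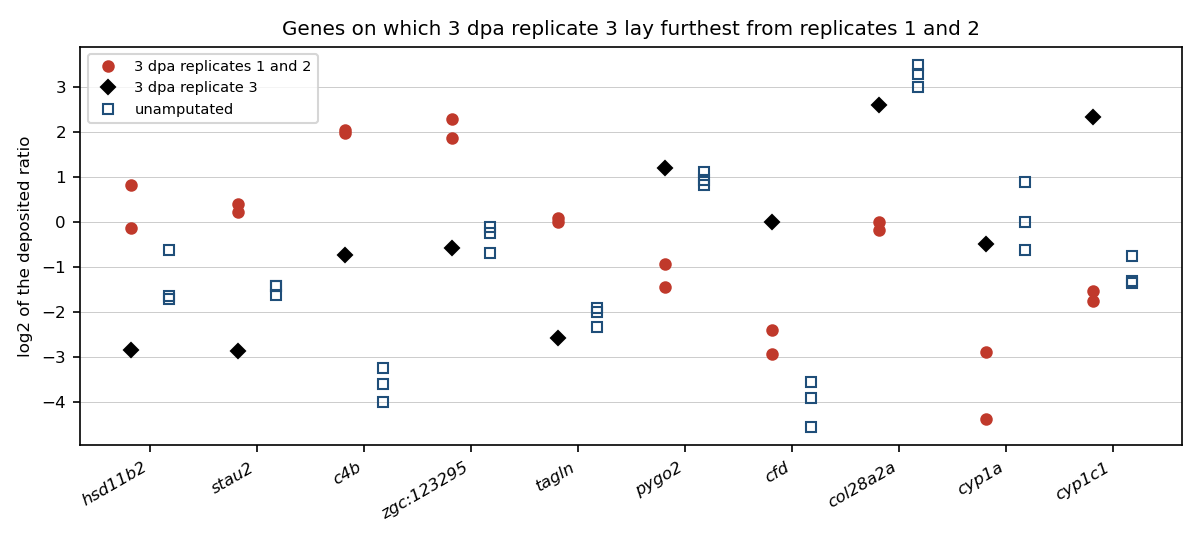
Log2 of the deposited ratio for the 10 genes on which 3 dpa replicate 3 (black diamonds) lay furthest from replicates 1 and 2 (circles), beside the 3 unamputated arrays (squares), 5 genes in each direction. Replicate 3 lay on the side of the unamputated arrays for most of these genes, and above all other arrays for cyp1c1.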

How the data were processed

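Each of 24 Affymetrix arrays carried 15617 probe sets. The deposited values are ratios: within each probe set 1 array often has a value of exactly 1, and the quantity the authors divided by is not given in the sources used here. GCRMA is named, with no version, per the submitters' processing notes. Sample groups and replicate numbers followed the titles, although the source names of all unamputated larval arrays give replicate 1.

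Ratios were converted to log2. After 115 control probe sets were left out, 15502 were tested with limma 3.58.1 in R 4.3.3 (lmFit, eBayes), on 12 larval arrays for the comparisons with unamputated and 2 dpa fin and on all 24 arrays for the larval and adult changes. Adjusted p-values are limma's after Benjamini-Hochberg adjustment over all probe sets tested. Calls required an adjusted p below 0.05 and a log2 change of at least 1. The fit was tested on simulated data.

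GEO's platform annotation gave 10795 probe sets 1 symbol, 135 several and 4572 none. Each of 8793 genes was represented by 1 probe set chosen by its ID. Fixed rules drew 213 named genes, and neither all of these nor all lists are described in the text. The rules took the 15 largest non-overlapping changes a direction and up to 5 called genes for each of 50 lists. They also took any lone riser or faller of a list and a few fixed genes. Added to these were the 10 largest differences between 3 and 2 dpa and the 10 largest a direction between larvae and adults. The last were the 5 genes a direction on which 3 dpa replicate 3 stood most apart. The members and lists were chosen with earlier results of these data known. Some genes belong to more than 1 list, so the list counts are not separate results. Alternatives covered the arrays in the fit, a replicate block, single arrays left out, scaling, a pseudocount of 0.1, a filter on low values, the fold threshold, array weights, the variance model and the choice of probe set.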

Additional observations from a re-analysis of the deposited data

Results flagged for a closer look

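For the following 20 genes the larval log2 change at 3 dpa differed from the adult change in limma's test of the difference itself. Those with the lower larval change were the cartilage genes col2a1a (−8.76), col9a2 (−7.43) and col9a1b (−7.22), the muscle genes smyhc1 (−8.0) and atp2a1 (−7.32), the matrix genes tnn (−6.68) and aebp1b (−6.41), and enam (−8.15), and2 (−6.46) and tubb5 (−6.40). In the cartilage and muscle genes and in tnn and aebp1b the larval fall made the difference, since none of their adult changes was called. For tnn this held for the probe set used, while its other probe set had −0.52 in larvae and was not called. Unamputated adult fin had col2a1a ratios of 0.604, 0.619 and 0.592 and smyhc1 ratios of 0.844, 0.977 and 0.878. These lay within the larval 3 dpa ranges of 0.570 to 0.863 and 0.839 to 2.38, so both were already low before adult amputation. Unamputated adult ratios of tnn, 1.02, 0.897 and 0.788, lay above its larval 3 dpa range of 0.0376 to 0.0523. In enam and and2 the adult rise made it, since neither larval change was called.

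Those with the higher larval change were tat (9.42), irf1b (6.70), si:dkey-247k7.2 (6.12), zdhhc2 (5.46), ucp1 (5.16), plekhf1 (5.13), zgc:172053 (4.88), wu:fj62d01 (4.68), mb (4.62) and nlrp16 (4.6). All 10 rose in larvae, and the adult changes of ucp1, mb and zgc:172053 were not called, while those of the others were falls. Larval and adult samples also differed in age, vehicle, pool size, RNA input and labelling kit, which cannot be told apart from the stage.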

How the results depend on the processing

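Between 3 dpa and unamputated fin the 1641 calls became 1566 with the 6 arrays alone, 1526 to 1809 with single arrays left out, 2172 after quantile normalization and 1367 with a pseudocount of 0.1. Without the 0.25 of probe sets with the lowest larval mean, 1089 were called (468 higher), and with no minimum fold 4371 were (2246 higher, 2125 lower). That filter removes genes with low ratios before testing, genes low in unamputated fin among them, so lost calls cannot decide whether rises hold. Under it the interferon list had 0 rises in place of 13 and the early response list 3 in place of 17. Rises were also 0 among proteasome genes (4 without the filter), insulin-like growth factors (3) and glycolysis and hypoxia genes (3), and 1 among bone and ray genes (5) and cytokine signalling genes (4), and endothelial falls were 2 in place of 5. Between 3 and 2 dpa the 46 calls became 2 with the 6 arrays alone (2 higher, 0 lower), 90 after quantile normalization (44 lower), 73 with no minimum fold (27 lower), and 16 higher ones without the probe sets of lowest mean. With single arrays left out they ranged from 23 to 122 (19 to 77 higher, 4 to 45 lower). The difference between larval and adult changes gave 6126 calls with no minimum fold (3584 higher). The causes of these shifts were not tested.

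With the replicate block, 1643 probe sets were called against unamputated fin, 54 between the days, and 1 of 213 named genes gained a call. Deviations of same-numbered arrays correlated at 0.10, 0.016 and 0.12, so the numbers were not taken as pairs. Among named genes 1 direction reversed: kif20a had −0.11 with its highest-mean probe set. Without 3 dpa replicate 3, 10 named genes lost their call and 6 gained one.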
